A study of Mus musculus with 60 samples.

Results

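The thymus and the inguinal lymph node were compared in 8 whole-tissue RNA libraries, the 4 thymus and the 4 inguinal lymph node libraries of a series of 60 libraries from 15 mouse tissues. The groups were thymus (n = 4) and inguinal lymph node (n = 4), each taken from female C57BL6/J mice of 6 weeks that had been perfused with buffered saline containing EDTA. The labels give both groups the same strain, age and sex, with no mutant allele and no treatment, and only the dissected tissue differs. The comparison sets an organ in which T cells are made beside an organ in which mature lymphocytes wait for antigen. RNA was primed with oligo(dT) and read from the 3' ends of transcripts, so 1 count is 1 sequenced read assigned to a gene. Levels are given as counts per 1000000 counts (CPM), scaled by the trimmed mean of M values (TMM). Genes are not compared with each other by level except as ratios whose change between tissues is described.

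T cell precursors enter the thymus and cut and rejoin the segments of their T cell receptor genes with the RAG1 and RAG2 proteins. A rearranged beta chain is tested with the invariant pre-T alpha chain, the cells then divide, express CD4 and CD8 together while the alpha chain is rearranged, and are selected on peptides shown by epithelial cells of the cortex and medulla. Survivors leave through sphingosine 1-phosphate and enter lymph nodes from the blood across high endothelial venules. In the node they share space with B cell follicles, dendritic cells, sinus macrophages and a network of reticular stromal cells.

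Of 13341 genes tested, 1657 rose in thymus (12.4%) and 2202 fell (16.5%), a total of 3859 genes (28.9%). A gene was called changed by edgeR's quasi-likelihood test at a Benjamini-Hochberg adjusted p below 0.05 with an absolute log2 fold change above 1, and every log2 fold change is thymus over inguinal lymph node. The median log2 fold change of all tested genes was -0.03, and the counts of each gene list below are to be read against these shares and this median. The library totals were 1636560 to 3212549 counts in thymus and 3208256 to 5211133 counts in inguinal lymph node. Mitochondrial ribosomal RNA made up 10.9 to 13.8% of counts in thymus and 4.33 to 7.66% in inguinal lymph node, and Malat1, a nuclear noncoding RNA, made up 0.684 to 0.93% in thymus and 0.485 to 0.635% in inguinal lymph node. Mitochondrial protein-coding transcripts took 0.488% of thymus replicate 4, against 1.57 to 1.91% of the other 3 thymus libraries. Inguinal lymph node replicates 3 and 4 stood apart in fat cell genes and node replicate 2 in interferon-response genes. Thymus replicate 2 stood apart in some B cell genes, among them Ighd and Vpreb3, and thymus replicate 4 in heart genes. The part of these differences in the results below was not tested, except where a library is left out. All 4 thymus libraries lay above the 4 node libraries for 26.2% of the tested genes and below them for 27.3%, and tissues did not overlap for 94.8% of the called genes. The 24 genes with the largest changes were named only where the tissues did not overlap. Of the 143 other called genes named here, Igha, Ighg2c, Krt19 and Prlr overlapped and 139 did not. The labels name 4 replicates per tissue without saying which mouse each came from, so p-values measure the spread between these libraries. In whole tissue, fewer cells of a type and less RNA per cell cannot be told apart.

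Rag1 and Ptcra marked the thymus libraries without overlap, while Il7r, the receptor chain for interleukin 7, went the other way. Rag1, a subunit of the recombinase, stood at 1911, 1926, 2465 and 2916 CPM in the thymus libraries, against 0.761, 2.78, 5.72 and 1.23 CPM in the inguinal lymph node libraries. Ptcra, the pre-T alpha chain, stood at 39, 35, 33.4 and 47.3 CPM in thymus and had no read in any inguinal lymph node library. With 3 counts over the 4 node libraries taken as the upper limit, it was at least 191-fold higher in thymus. Il7r had 75.3, 99.1, 116 and 69.1 CPM in thymus and 205, 250.5, 235 and 183 CPM in inguinal lymph node, a log2 fold change of -1.27 ± 0.16 (SE). Every thymus library was below every node library for Il7r. For Rag1 the log2 fold change of 9.87 ± 0.37 (SE) was 10.53 without node replicate 3, the highest of the node libraries.

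The promoter sequences of Ptcra, Rag1 and Psmb11 are shown because these genes were among the 12 that rose most and stand for the T cell lineage and for cortical epithelium. E proteins, the basic helix-loop-helix factors encoded by Tcf12 and Tcf3, bind E-boxes, of which CAGCTG is a form, and FOXN1, the regulator of thymic epithelium, recognises a short core written ACGC. Each run covers 250 bases before to 50 bases after the gene start in RefSeq on GRCm38.p6, is written 5′ to 3′ along the strand of the gene, and has in capitals CAGCTG for Ptcra and Rag1, and ACGC or its reverse complement GCGT for Psmb11.
Ptcra, chr17:46763663-46763962, minus strand: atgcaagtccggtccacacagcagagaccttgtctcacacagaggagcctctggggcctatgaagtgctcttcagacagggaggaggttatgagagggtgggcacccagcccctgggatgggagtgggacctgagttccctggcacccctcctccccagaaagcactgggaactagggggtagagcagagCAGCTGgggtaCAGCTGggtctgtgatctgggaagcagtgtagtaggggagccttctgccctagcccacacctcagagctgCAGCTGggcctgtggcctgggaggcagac
Rag1, chr2:101649483-101649782, minus strand: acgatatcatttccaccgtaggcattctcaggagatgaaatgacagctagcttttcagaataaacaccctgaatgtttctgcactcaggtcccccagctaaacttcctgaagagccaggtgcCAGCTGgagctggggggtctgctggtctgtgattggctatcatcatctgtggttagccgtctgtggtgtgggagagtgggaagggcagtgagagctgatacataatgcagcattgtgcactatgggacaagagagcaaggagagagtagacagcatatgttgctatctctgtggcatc
Psmb11, chr14:54625060-54625359, plus strand: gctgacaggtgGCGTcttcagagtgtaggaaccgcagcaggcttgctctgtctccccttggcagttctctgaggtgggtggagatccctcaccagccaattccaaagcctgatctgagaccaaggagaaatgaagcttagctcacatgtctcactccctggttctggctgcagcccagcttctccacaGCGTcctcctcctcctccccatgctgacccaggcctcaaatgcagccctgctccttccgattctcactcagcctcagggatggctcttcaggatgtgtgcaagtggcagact

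The Ptcra window held 3 CAGCTG matches, whose first bases lay 60 and 49 bases before the start and 21 bases after it. The Rag1 window held 1, at 128 bases before the start. The Psmb11 window held 2 ACGC matches, at 239 and 62 bases before the start, both on the opposite strand. In GENCODE M21 the Psmb11 gene runs from 54621433 to 54629556, so this window, placed by the RefSeq start, lies inside that gene model. Among 32851 RefSeq promoter windows of this length, 16.3% held CAGCTG, 0.207% held it at least 3 times, and 55.3% held ACGC on either strand. CAGCTG is its own reverse complement, so both strands were searched at once, and the motifs share no bases. These matches describe letters in a window and show no binding.

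The 12 genes with the largest rise, among called genes with at least 20 CPM in thymus and no overlap between the tissues, were mostly genes known from thymocytes and thymic epithelium. Those known from thymocytes were Rag1, Rag2, Ptcra and Arpp21, which encodes a regulated phosphoprotein with an RNA-binding domain. Arpp21 had 743, 734, 885 and 753 CPM in thymus, against 1.14, 1.11, 0.954 and 0.307 CPM in inguinal lymph node, a log2 fold change of 9.67 ± 0.20 (SE, adjusted p = 2.3e-12, edgeR). Rag2, the partner of Rag1, had 98.6, 114, 138 and 136 CPM in thymus and a total of 2 reads over the 4 node libraries, a ratio of 927 with a 95% counting interval of 256 to 7660. Rag2 and Rag1 lie close together on chromosome 2, at 101624718 to 101632529 and 101638282 to 101649501 in GENCODE M21 on the build of the counts, mm10. Those known from thymic epithelium were Pax1, a paired-box factor of pharyngeal pouch development, Foxn1, Psmb11, Prss16 and Tbata. Pax1 had 119, 114, 101 and 69.1 CPM in thymus and no read in the node libraries, which made it at least 527-fold higher. Prss16, a serine protease of cortical epithelium that trims peptides for class II molecules, had 754, 684, 652 and 742 CPM in thymus and 3.62, 3.05, 0 and 2.45 CPM in inguinal lymph node. Tbata, named for its expression in thymus, brain and testis, had 719.8, 713, 654 and 378 CPM in thymus and 2.28, 2.22, 1.91 and 0.92 CPM in inguinal lymph node. That no thymus library overlapped a node library for any of these was required by the rule for naming.

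The remaining 3 were Slc46a2, a transporter described in thymic stroma, Tdrd5, a tudor-domain gene known from the germ line, and Dgkeos, an RNA antisense to Dgke. Slc46a2 had 71.8, 81, 72.6 and 49.8 CPM in thymus and 1 read in all node libraries together, a ratio of 1080 (95% counting interval 193 to 42700). Tdrd5 had 94.8, 73, 94.5 and 118 CPM in thymus and 2 reads in the node libraries, a ratio of 711 (196 to 5880). Dgkeos had 92.5, 90.7, 136 and 138 CPM in thymus and 0.19, 0.278, 0 and 0.613 CPM in inguinal lymph node. No source used here states whether the counting used strand, and reads of Dgkeos and of Dgke, whose log2 fold change of 2.89 ± 0.13 (SE) was looked up after that of Dgkeos was seen, cannot be told apart. Across the means of all 15 tissues, 11 of these 12 genes had their highest level in thymus, and Slc46a2 had its highest in skin. Not all of the 11 were confined to thymus. With all 60 libraries scaled together, Arpp21 averaged 592 CPM in thymus and 372 CPM in brain. On the same scale Foxn1 averaged 16.6 CPM in thymus and 10.3 CPM in skin.

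**Figure D1:**
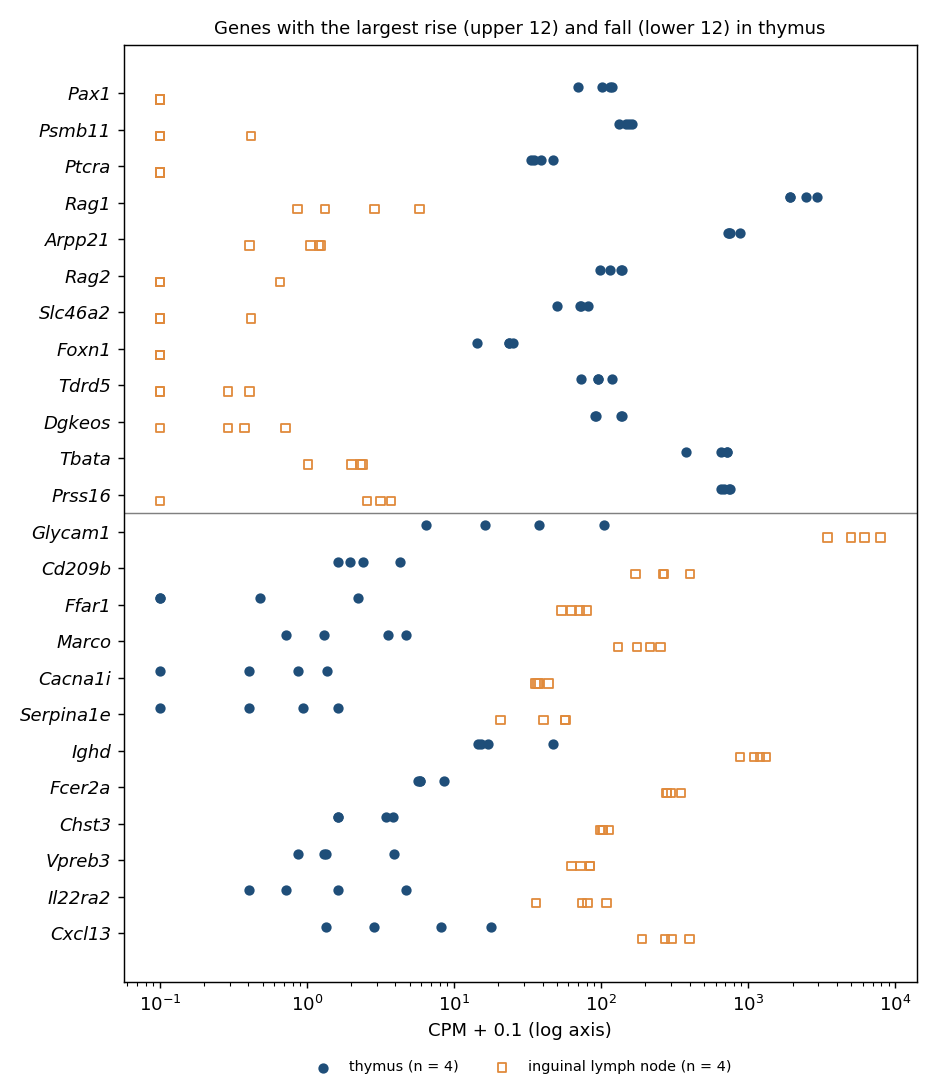
CPM of the 12 genes with the largest rise and the 12 with the largest fall in thymus, on a log axis of CPM + 0.1. Each row holds the 4 thymus libraries (upper, filled circles) and the 4 inguinal lymph node libraries (lower, open squares), and no row overlaps between the tissues, as the rule for naming required.

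The 12 genes with the largest fall belonged mostly to B cells, high endothelium, sinus macrophages and follicular stroma. Glycam1, a mucin-like protein made by high endothelial cells, had 37.4, 105, 6.38 and 16.2 CPM in thymus, against 7924, 6191, 4987 and 3465 CPM in inguinal lymph node, a log2 fold change of -7.10 ± 0.66 (SE). Cd209b, a C-type lectin of marginal and medullary sinus macrophages, had 2.29, 4.22, 1.52 and 1.87 CPM in thymus and 402, 264, 266 and 171 CPM in inguinal lymph node. Marco, a scavenger receptor of the same macrophages, averaged 2.48 ± 1.88 CPM in thymus and 193 ± 52.7 CPM in inguinal lymph node (SD, n = 4 each). Cxcl13, the chemokine that draws B cells into follicles, had 8.02, 17.7, 2.74 and 1.25 CPM in thymus and 399, 301, 271 and 189.9 CPM in inguinal lymph node. The B cell genes were Ighd, the delta heavy chain, Fcer2a, the low-affinity IgE receptor CD23, and Vpreb3, a surrogate light chain homologue. Ighd averaged 23.4 ± 15.9 CPM in thymus and 1123 ± 189 CPM in inguinal lymph node (SD, n = 4 each). The highest thymus values of Glycam1, Cxcl13, Ighd and Vpreb3 were all in replicate 2, and without that library their log2 fold changes were -8.14, -6.08, -6.18 and -6.10, against -7.10, -5.26, -5.59 and -5.42 with it.

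The others among the 12 were Ffar1, a free fatty acid receptor (0.623 CPM in thymus and 66.7 CPM in inguinal lymph node on average), Cacna1i, a T-type calcium channel (0.583 CPM in thymus and 38.5 CPM in inguinal lymph node), Chst3, a chondroitin sulfotransferase, Il22ra2, a soluble binding protein for interleukin 22, and Serpina1e, an antitrypsin gene. Serpina1e has near-identical copies, so its 0.669 CPM in thymus and 43.7 CPM in inguinal lymph node are uncertain as to the copy. Without thymus replicate 2 the log2 fold changes of Ffar1 and Il22ra2 were -8.60 and -6.48, against -6.69 and -5.41 with it, and without thymus replicate 1 that of Serpina1e was -6.62, against -5.88. Of the 12, 4 had their highest level among the 15 tissue means in the inguinal lymph node. With all 60 libraries scaled together, Cd209b averaged 213 CPM there and 205 CPM in mesenteric lymph node, and Cxcl13 224 CPM there and 218 CPM in spleen. Glycam1 and Il22ra2 stood further above the next tissue. Ffar1, Cacna1i, Ighd, Fcer2a and Chst3 had their highest level in blood.

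Genes of receptor gene rearrangement rose together in thymus. Of the 13 genes on that list, all of which were tested, 10 rose and none fell, with a median log2 fold change of 2.57. Dntt, the template-independent polymerase that adds bases at the joins, had 838, 809.8, 927 and 819 CPM in thymus, against 3.05, 5.83, 6.99 and 4.29 CPM in inguinal lymph node (log2 fold change 7.43 ± 0.19, SE). Of the end-joining machinery, Lig4, the ligase, had 121, 94.5, 123 and 136 CPM in thymus and 10.3, 11.7, 11.1 and 13.5 CPM in inguinal lymph node. Xrcc6, the Ku70 subunit, averaged 282 ± 21.6 CPM in thymus and 32.6 ± 2.79 CPM in inguinal lymph node (SD, n = 4 each), whereas its partner Xrcc5, Ku80, averaged 31.7 ± 8.74 CPM in thymus and 29.1 ± 1.6 CPM in inguinal lymph node and was not called (log2 fold change 0.14 ± 0.18). Prkdc, the DNA-dependent kinase, was at a log2 fold change of 0.14 and Nhej1 at 0.51, neither called. Hmgb1 and Hmgb2, DNA-bending proteins that aid RAG cleavage and are abundant in dividing cells, rose by log2 fold changes of 2.15 and 2.57.

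The T cell receptor complex rose unevenly. Of 24 genes for receptor chains, coreceptors and proximal signalling, 12 rose and none fell, with a median of 1.05. The beta chain constant genes rose, with Trbc2 at 3139, 3049, 3543 and 3497 CPM in thymus and 683, 719, 541 and 741 CPM in inguinal lymph node (log2 fold change 2.30 ± 0.13, SE) and Trbc1 at a log2 fold change of 2.47 ± 0.13 (SE). The alpha chain constant gene Trac had 559.7, 574, 656 and 369 CPM in thymus, against 466, 537, 404 and 508 CPM in inguinal lymph node, and at a log2 fold change of 0.17 ± 0.16 (SE) it was not called. The tissues overlapped for Trac, and its lowest thymus value was in replicate 4. The ratio of Trbc2 to Trac was 5.61, 5.31, 5.4 and 9.49 in thymus, against 1.47, 1.34, 1.34 and 1.46 in inguinal lymph node. This pair, like the other ratios given here, was chosen after its values were seen, and Trbc1 and Trbc2 are near-identical copies whose reads may be split between them.

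The coreceptors CD4 and CD8 both rose. Cd8b1 had 891, 971, 1141 and 1169.9 CPM in thymus, against 236, 241, 199 and 266 CPM in inguinal lymph node (log2 fold change 2.15 ± 0.13, SE), and Cd8a rose by a log2 fold change of 2.14 ± 0.14 (SE). Cd4 had 558, 582, 672 and 575 CPM in thymus and 224, 221, 209 and 198 CPM in inguinal lymph node, a log2 fold change of 1.49 ± 0.10 (SE). The invariant chains were closer to the threshold, with Cd3e and Cd247 called at log2 fold changes of 1.21 and 1.15, and Cd3g and Cd3d not called at 0.95 and 0.85, though Cd3g was at 1.02 and called without node replicate 4. Among signalling proteins, the kinase gene Lck rose by a log2 fold change of 1.81 ± 0.12, the adaptor gene Lat by 1.66 ± 0.11 and Themis, which is needed for thymocyte selection, by 3.48 ± 0.14 (SE). Zap70, the kinase recruited to the phosphorylated receptor, was at a log2 fold change of 0.59 ± 0.12 and not called.

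Genes of the double-positive stage, when CD4 and CD8 are expressed together, showed large rises. Of 20 genes on this list, 15 rose and 1 fell, with a median of 3.02. Satb1, a chromatin organiser, had 2876, 3000.0, 3519 and 3683 CPM in thymus and 365, 446, 364 and 433 CPM in inguinal lymph node (log2 fold change 3.02 ± 0.14, SE). Myb, a factor needed for thymocyte and progenitor development, averaged 597 ± 97.8 CPM in thymus and 26.2 ± 3.9 CPM in inguinal lymph node (SD, n = 4 each). Aqp11, an aquaporin, and Endou, an endoribonuclease, rose by log2 fold changes of 6.83 ± 0.15 and 6.49 ± 0.20 (SE). The member that fell was Cd81, a tetraspanin, at a log2 fold change of -1.10 ± 0.17, and Cd24a, Slamf1, Cd1d1 and Tcf3 were not called. Without thymus replicate 4, Cd81 was at -0.94 and no longer called. Cd24a and Cd81 are also expressed by B cells.

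Among E proteins and their partners, Tcf12 alone of 8 tested genes rose (12.5%, near the 12.4% of all tested genes). In this list 2 genes fell (25%, against 16.5% of all tested genes). Tcf12, which encodes HEB, had 441, 450.0, 489 and 461 CPM in thymus, against 111, 102, 103 and 100.3 CPM in inguinal lymph node (log2 fold change 2.14 ± 0.09, SE). Tcf3, which encodes E2A, had 104, 115, 109 and 95.9 CPM in thymus and 119, 126, 95.4 and 112 CPM in inguinal lymph node, and the tissues overlapped. The inhibitors Id2 and Id3 were at log2 fold changes of -0.65 ± 0.13 and -0.67 ± 0.13 (SE) and were not called, and Lyl1 and Tal1, haematopoietic factors that also act in endothelium, fell, at log2 fold changes of -4.28 and -3.10.

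The genes of the earliest thymocytes split. Of 17 on the list, 16 were tested, 6 rose and 5 fell, with a median of 0.57. The factors of T lineage commitment rose, with Tcf7 (TCF-1) at 2177, 2365, 2665 and 2099 CPM in thymus and 330.0, 399, 374 and 485 CPM in inguinal lymph node, Bcl11b at a log2 fold change of 2.53 ± 0.14 and Gata3 at 1.46 ± 0.14 (SE). Gfi1, a repressor active in early thymocytes, rose by a log2 fold change of 3.48 ± 0.18. Il2ra, the CD25 chain that marks pre-T cells and also regulatory and activated T cells, was called at a log2 fold change of 1.00 ± 0.15 (SE), close to the threshold of 1. It was at 0.91 to 0.98 and not called without thymus replicate 1, 2 or 4 and without node replicate 1 or 3. The members that fell were Kit, Dtx1, Lyl1, Hhex and Erg, which are also known from mast cells, B cells or endothelium. Kit, at -1.04, was at -0.95 to -0.98 and not called without thymus replicate 3 and without node replicate 1 or 3, and Erg was at -3.75 without thymus replicate 2, against -3.09 with it. Notch1 and Notch3, the receptors that set T cell fate, were at log2 fold changes of 0.82 ± 0.29 and 0.32 ± 0.14 and were not called, though Notch1 was at 1.01 and called without thymus replicate 3.

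Genes of gamma delta T cells were split too. Of 14 names on the list, 3 of them second names of gamma constant genes, 9 were tested, 4 rose and 2 fell. The delta and gamma constant genes rose, with Trdc at 115, 119, 129 and 78.4 CPM in thymus, against 14.3, 15.3, 10.5 and 22.4 CPM in inguinal lymph node, and Tcrg-C1, Tcrg-C2 and Tcrg-C4 at log2 fold changes of 2.92, 2.87 and 2.10. Thymus replicate 4 was the lowest of the thymus libraries for Trdc. Zbtb16, a factor of innate-like cells, was not called at a log2 fold change of -0.99 ± 0.43 (SE), and was called at -1.27 without node replicate 2. Blk, which fell (log2 fold change -4.10), is also a B cell kinase.

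**Figure D2:**
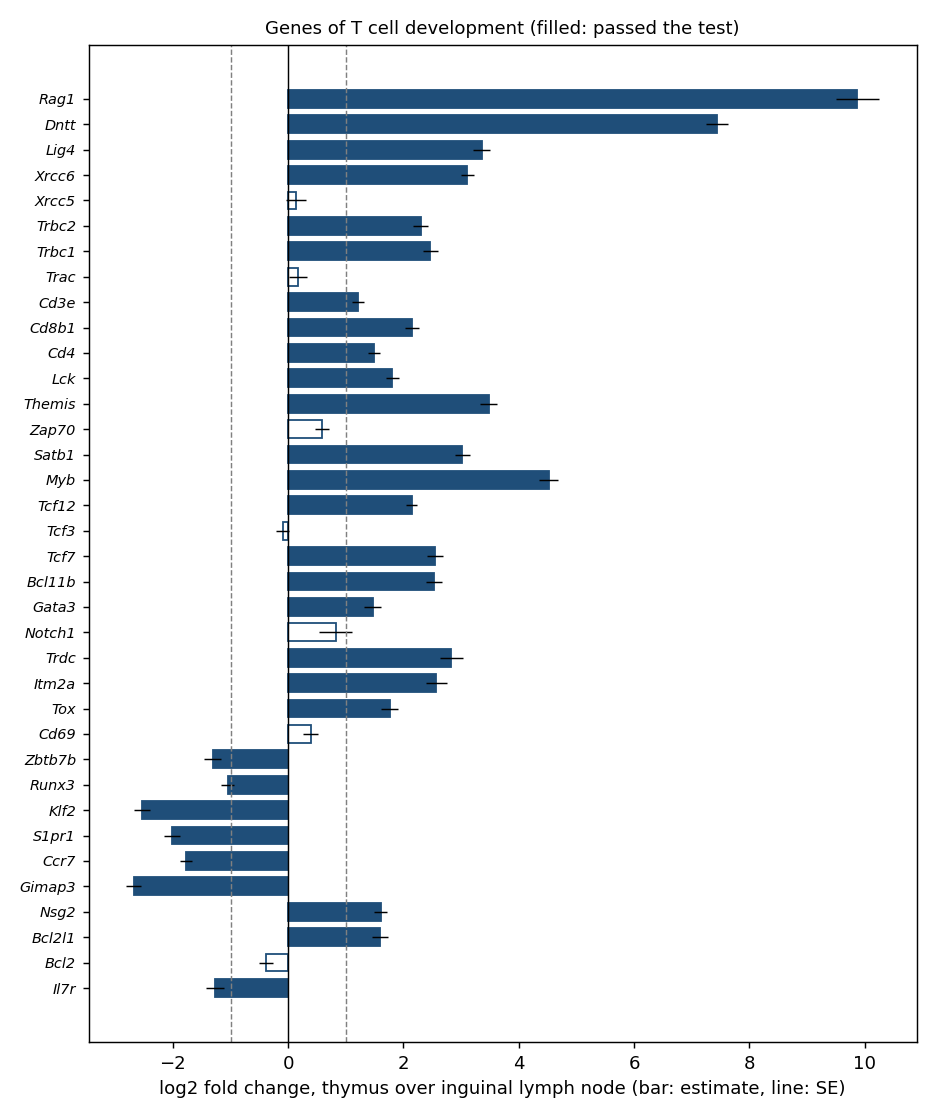
Log2 fold change (thymus over inguinal lymph node) with SE for genes of T cell development grouped roughly by stage of development. Bars right of 0 are higher in thymus, dashed lines mark the threshold of 1 in either direction, and filled bars passed the test: the bars run from 9.87 for Rag1 to -2.68 for Gimap3, with Trac at 0.17.

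Genes of selection were mixed. Of 15, 5 rose and 3 fell, with a median of 0.73. Those that rose were Itm2a, a membrane protein induced on selection, at a log2 fold change of 2.57 ± 0.18, Ikzf2 (Helios), at 1.80 ± 0.12, Tox, at 1.76 ± 0.15, Gata3, and Nr4a1, an immediate response gene of receptor signalling, at 1.13 ± 0.17 (SE). Those that fell were Egr3, at a log2 fold change of -2.44 ± 0.21, Zbtb7b (ThPOK), the factor of the CD4 lineage, at -1.31 ± 0.15, and Runx3, a factor of the CD8 lineage, at -1.05 ± 0.11 (SE). Nr4a1 was at 0.99 and 1.00 and not called without thymus replicate 4 and without node replicate 1, and Runx3 at -0.99 without node replicate 2. Zbtb7b had 32.5, 27.4, 25.2 and 19.9 CPM in thymus and 56.7, 69.1, 63.3 and 74.2 CPM in inguinal lymph node. Cd69, which rises after receptor signalling and holds cells in the tissue, was at a log2 fold change of 0.40 ± 0.13 and Cd5 at 0.41 ± 0.10, neither called.

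Genes of mature naive T cells were lower in thymus. Of 26 genes, 17 fell and 1 rose, with a median of -1.68. Klf2, the factor that switches on the receptors of circulating cells, had 52.7, 65.8, 50.8 and 79.1 CPM in thymus, against 349.7, 378, 324 and 369 CPM in inguinal lymph node (log2 fold change -2.53 ± 0.14, SE). Its target S1pr1, the receptor that guides exit, fell too, with 45.5, 44.3, 31.9 and 34.2 CPM in thymus and 133, 172, 164 and 160.1 CPM in inguinal lymph node. Ccr7, the receptor for entry into T zones, fell (log2 fold change -1.77). Of 8 Gimap genes, GTPases of lymphocyte survival, Gimap3, Gimap4, Gimap5 and Gimap7 fell, at log2 fold changes of -2.68, -1.92, -1.96 and -1.65, while Gimap1, Gimap6, Gimap8 and Gimap9 were not called, though Gimap8 was at -1.02 and called without thymus replicate 3. The exception that rose was Nsg2, a gene known from neuronal vesicles, at a log2 fold change of 1.61 ± 0.11 (SE). Several of these genes, among them Ccr7 and Klf2, are also expressed by B cells.

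Around sphingosine 1-phosphate, 13 genes were tested, of which 6 fell and 1 rose. Beside S1pr1, S1pr4 fell (log2 fold change -2.24), and Spns2, the exporter of the lipid from lymphatic endothelium, had 1.53, 2.95, 5.47 and 1.25 CPM in thymus and 45.1, 45.8, 42 and 33.7 CPM in inguinal lymph node. The lyase Sgpl1, which keeps the lipid low inside tissue, was higher in thymus at a log2 fold change of 1.01 ± 0.10 (SE), close to the threshold, and at 0.96 to 0.99 and not called without thymus replicate 1 or 4 and without node replicate 2 or 3. Without thymus replicate 3, Spns2 was at -4.39, against -3.75 with it.

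Of 16 BCL-2 family and caspase genes, which set cell survival, 1 rose (6.25%) and 3 fell (18.8%), against 12.4% and 16.5% of all tested genes. Bcl2l1, which encodes BCL-XL, the survival protein of double-positive cells, had 141, 116, 165 and 179.9 CPM in thymus, against 51.8, 45.5, 53.7 and 47.2 CPM in inguinal lymph node (log2 fold change 1.60 ± 0.14, SE). Bcl2, the survival protein of mature cells, had 153, 165, 172 and 124 CPM in thymus and 222, 209, 204 and 169 CPM in inguinal lymph node and was not called at a log2 fold change of -0.39 ± 0.12. The proapoptotic Bcl2l11 (BIM) was at a log2 fold change of 0.73 ± 0.13 and Bbc3 (PUMA) at -0.33 ± 0.22, neither called. The members that fell were Pmaip1 (NOXA) and Bcl2a1a and Bcl2a1b, which belong to a group of near-identical copies.

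Of 22 cytokine and receptor genes, 21 were tested, 12 fell (57.1%) and 2 rose (9.52%), against 16.5% and 12.4% of all tested genes. Il7 itself was not called at a log2 fold change of 0.52 ± 0.27 (SE), with 43.9, 44.3, 45.6 and 32.4 CPM in thymus and 47.8, 26.7, 26.1 and 14.1 CPM in inguinal lymph node. Receptor chains that fell with Il7r were Il2rb, Il2rg, the common gamma chain, Il6ra and Tgfbr2, at log2 fold changes of -1.40, -1.02, -2.47 and -1.49. Il2rg was at -0.95 and -0.97 and not called without thymus replicate 4 and without node replicate 2. Those that rose were Il2ra and Socs1, the inhibitor of cytokine signalling, at 194, 189, 179.9 and 149 CPM in thymus and 60, 86.4, 54.7 and 57.1 CPM in inguinal lymph node. Il2ra was not called without thymus replicate 1, 2 or 4 and without node replicate 1 or 3, and 1 gene of the list rose in each of those fits. Among 17 tested genes of activated and regulatory T cells, 4 rose and 7 fell, and 3 rose in each of those same fits. Foxp3, the factor of regulatory T cells, had 2.67, 2.53, 0.912 and 1.87 CPM in thymus and 15.6, 21.4, 10.2 and 23 CPM in inguinal lymph node. Those that rose were Ikzf2, Il2ra, Pdcd1 at a log2 fold change of 1.54 ± 0.28 and Ccr4, a chemokine receptor of cells moving to the medulla, at 2.84 ± 0.41 (SE).

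Genes of cell division rose almost throughout. Of 20 genes of S phase, 19 were tested and 17 rose, with a median of 1.58, and all 18 genes of mitosis rose, with a median of 2.97. Mki67, the proliferation antigen, had 675, 724, 820.4 and 795 CPM in thymus, against 58.8, 50.3, 42.6 and 50.6 CPM in inguinal lymph node (log2 fold change 3.89 ± 0.13, SE). Top2a, the topoisomerase of replicating chromosomes, had 906, 934, 993 and 1079.6 CPM in thymus and 80.7, 95.2, 61.7 and 69 CPM in inguinal lymph node. Cenpf, a kinetochore protein, showed the largest change of the mitosis list at a log2 fold change of 4.20 ± 0.15, and Kif20a the smallest at 2.23 ± 0.46 (SE). In S phase the ribonucleotide reductase subunit Rrm2 rose by a log2 fold change of 3.18 ± 0.17 and its partner Rrm1 by 2.01 ± 0.14, and the 6 helicase subunits Mcm2 to Mcm7 rose by log2 fold changes of 1.28 to 1.71. Tk1 and Cdt1 were not called, at log2 fold changes of 0.44 and 0.78. Inguinal lymph node replicate 3 was the lowest node library for Mki67 and Top2a.

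Genes of cortical thymic epithelium were higher in thymus. Of 17, all tested, 14 rose and 1 fell, with a median of 4.58. It was 5.60 with node replicates 3 and 4 left out. Setting genes that had no node read to their bound could not move this median, or that of rearrangement, since every bound lay above the median. Psmb11, the catalytic subunit of the thymoproteasome that makes peptides for positive selection, had 163, 147, 132 and 154 CPM in thymus and 1 read in the 4 node libraries together, a ratio of 2250 with a 95% counting interval of 403 to 88900. Foxn1 had 25.2, 23.6, 23.7 and 14.3 CPM in thymus and no node read, and was at least 115-fold higher. Ccl25, the chemokine that attracts precursors through CCR9, had 605, 549, 517 and 606 CPM in thymus, against 10.5, 9.44, 12.7 and 14.7 CPM in inguinal lymph node. Ctsl, the cathepsin that processes antigen for class II molecules in the cortex, averaged 803 ± 32.9 CPM in thymus and 152 ± 40.1 CPM in inguinal lymph node (SD, n = 4 each).

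Dll4, the Notch ligand of cortical epithelium, was the member that fell. It had 7.26, 7.59, 5.17 and 4.98 CPM in thymus, against 16.7, 11.9, 18.4 and 12 CPM in inguinal lymph node (log2 fold change -1.23 ± 0.25, SE), and it is also made by endothelium and reticular cells. Cxcl12 and Kitl, factors made by many stromal cells, were not called, at log2 fold changes of -0.57 ± 0.21 and -0.54 ± 0.21 (SE). The simple keratins Krt8 and Krt18 rose, and inguinal lymph node replicates 3 and 4 were the highest node libraries for both. Krt8 had 204, 230.3, 203 and 173 CPM in thymus and 8.18, 0.278, 32.7 and 36.2 CPM in inguinal lymph node, and Krt18 had 309, 316, 259 and 349.9 CPM in thymus and 10.7, 0.555, 50.6 and 52.8 CPM in inguinal lymph node. With node replicates 3 and 4 left out, the log2 fold changes of Krt8 and Krt18 were 5.39 and 5.60, against 3.45 and 3.48 with them.

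Of the 7 genes for catalytic beta subunits of proteasomes, Psmb11 was the single one to pass both thresholds. This is 14.3% risen, near the 12.4% of all tested genes, and 0% fallen, against 16.5%. The constitutive Psmb5, Psmb6 and Psmb7 were at log2 fold changes of -0.05 ± 0.12, 0.29 ± 0.10 and 0.27 ± 0.23, and the immunoproteasome subunits Psmb8, Psmb9 and Psmb10 at -0.50 ± 0.11, -0.68 ± 0.12 and -0.43 ± 0.11 (SE).

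Genes of medullary epithelium, which shows tissue-restricted antigens to developing T cells, were likewise higher in thymus. Of 13, 9 rose and none fell, with a median of 2.88. That median was 3.63 without node replicate 4, and 4.85 with 10 of 12 risen when node replicates 3 and 4 were left out, and 1 gene fell without node replicate 2. Aire, the regulator that switches on tissue-restricted genes, had 13.8, 21.5, 22.8 and 23.7 CPM in thymus, against 6.85, 4.17, 4.13 and 7.36 CPM in inguinal lymph node (log2 fold change 1.83 ± 0.26, SE). Fezf2, a factor with a like role, had 25.2, 24.5, 22.2 and 17.4 CPM in thymus and 1 read in the node libraries, a ratio of 347 (95% counting interval 61.7 to 13800). Krt5 and Krt14, keratins of medullary and basal epithelium, had 145, 175, 160.5 and 115 CPM and 40.1, 28.7, 44.1 and 42.3 CPM in thymus, against 3.24, 1.11, 11.4 and 9.2 CPM and 1.71, 0, 8.58 and 12.3 CPM in inguinal lymph node. With node replicates 3 and 4 left out, the log2 fold changes of Krt5 and Krt14 were 5.97 and 5.22, against 4.66 and 2.88 with them, and without replicate 4 alone that of Krt14 was 3.63. Tnfrsf11a (RANK) and the claudins Cldn3 and Cldn4 were not called, though Cldn3 was called at -1.69 without node replicate 2, and Cldn4 at 2.82 without node replicates 3 and 4.

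Most genes on the list of tissue-restricted antigens were too low to test. Of 26 names, 5 were tested, of which 3 rose and 1 fell, against 5 risen of 8 tested with node replicates 3 and 4 left out. The 3 that rose passed the filter on low counts only through their thymus reads, so this count does not describe the whole list. Without a filter 12 of 23 rose and 2 fell, and in the fit of all 60 libraries 10 of 17 rose and 2 fell. Csn2, the milk protein beta casein, had 14.5, 16, 16.4 and 16.8 CPM in thymus, against 0.19, 0, 0.954 and 0 CPM in inguinal lymph node, where node replicate 3 held most of the reads. Gp2, a receptor of intestinal M cells, had 8.41, 9.7, 8.21 and 9.96 CPM in thymus and no node read, which made it at least 45.3-fold higher. Avil, advillin of tuft cells, rose by a log2 fold change of 2.69 ± 0.38 (SE). Dclk1, a kinase of tuft cells that is also made in stroma, fell (log2 fold change -3.28). Genes below the filter included Ins2, insulin, listed at 0, 0.422, 0.912 and 1.25 CPM in thymus and 0 in every node library, and Chga, chromogranin A, at 11.1, 8.44, 1.82 and 6.85 CPM in thymus and 0.19, 0, 0 and 0 CPM in inguinal lymph node. On separate lists of other tissues that a dissected sample could hold, keratinocyte genes rose in 4 of 5 tested of 8 listed. Among them was Krtdap, at a log2 fold change of 2.91 ± 0.35 (SE). Without a filter, and in the fit of all 60 libraries, 4 of 8 rose, and 3 rose without thymus replicate 3 or 4 or node replicate 1 or 4. Pth, parathyroid hormone, had 11.8, 13.1, 5.17 and 1.87 CPM in thymus and 0 in the node libraries. Whether these reads came from thymic epithelium or from attached tissue was not tested.

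**Figure D3:**
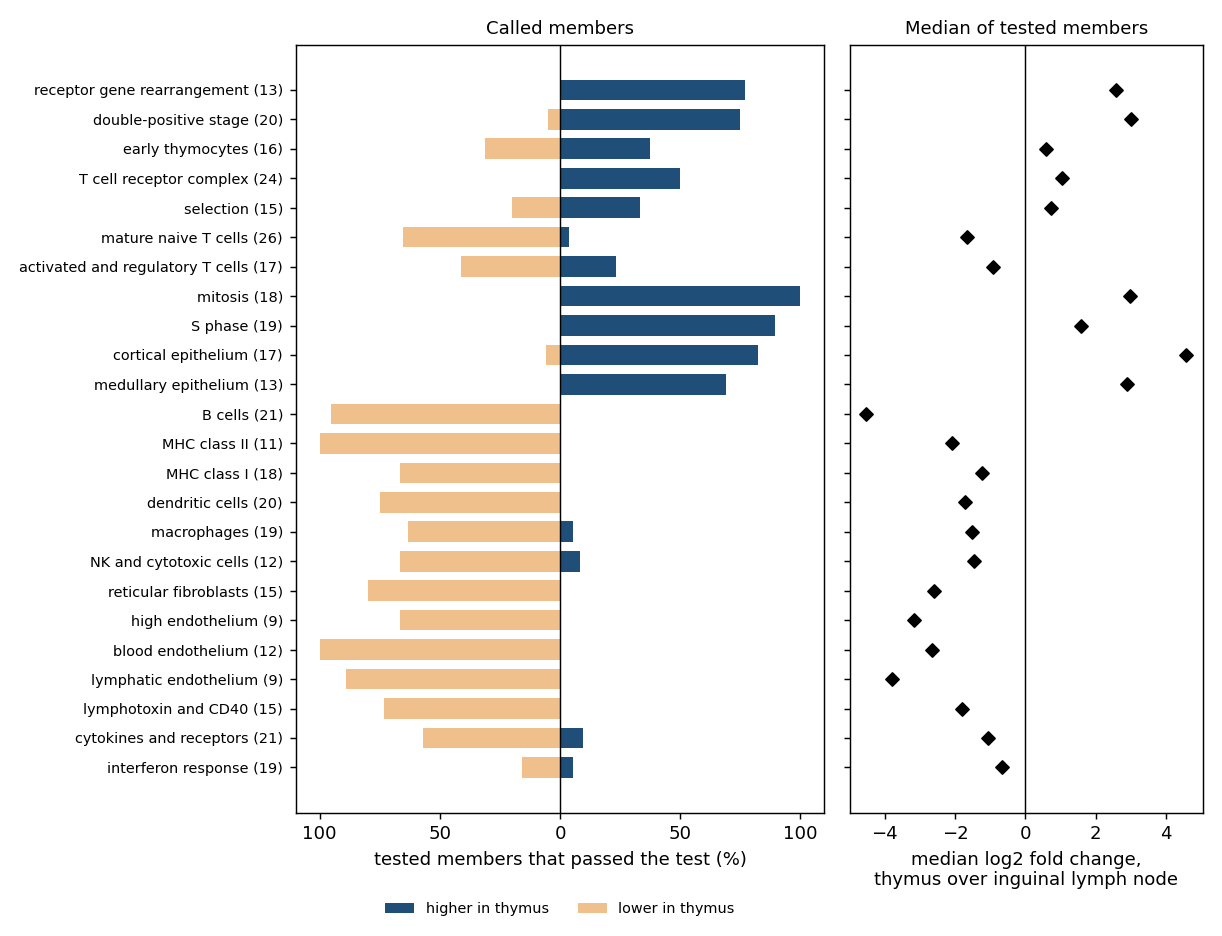
Share of the tested members of each gene list that rose in thymus (right, dark) or fell (left, light) with the number of tested members in brackets, and the median log2 fold change of the tested members as a diamond on the right-hand panel. Mitosis, rearrangement and cortical epithelium stand on the side of thymus, with 100, 76.9 and 82.4% of tested members risen, and B cells, class II and blood endothelium on the side of inguinal lymph node, with 95.2, 100 and 100% fallen.

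B cell genes fell nearly without exception. Of 21 genes, 20 fell and none rose, with a median of -4.53. Cd79b, a signalling chain of the B cell receptor, had 28.7, 38.4, 28.3 and 28 CPM in thymus and 619, 744, 634 and 618 CPM in inguinal lymph node (log2 fold change -4.40 ± 0.14, SE), and Pax5, the factor of B cell identity, averaged 6.63 ± 2.12 CPM in thymus and 175 ± 18.5 CPM in inguinal lymph node (SD, n = 4 each). Ly6d, expressed by B cell precursors and also by epithelium, was the member not called, with 443, 403, 418 and 339.9 CPM in thymus and 367, 426, 417 and 386 CPM in inguinal lymph node.

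The heavy chain constant genes did not move together. Ighm had 733, 800.1, 674 and 604 CPM in thymus, against 1979.9, 2769, 1842 and 2132 CPM in inguinal lymph node (log2 fold change -1.63 ± 0.15, SE), while Ighd was at -5.59 ± 0.33. The ratio of Ighm to Ighd was 50.5, 16.9, 44.3 and 35.9 in thymus, against 1.65 to 2.43 in inguinal lymph node. Thymus replicate 2, the highest thymus library for Ighd, had the lowest of the thymus ratios. Igha was higher in thymus, at 105, 102, 84.8 and 94 CPM, against 36.4, 86.1, 19.4 and 10.7 CPM in inguinal lymph node, while Ighg2c fell, with 24.1, 30.8, 10.3 and 8.09 CPM in thymus and 3.62, 399.6, 4.45 and 249.99 CPM in inguinal lymph node. Inguinal lymph node replicates 2 and 4 held most of the Ighg2c reads. Of 14 tested plasma cell and germinal centre genes on a list of 17, 2 rose and 7 fell, and Jchain and Sdc1, which mark plasma cells, were not called at log2 fold changes of -0.32 ± 0.33 and 0.21 ± 0.20 (SE). Without node replicate 2, Igha was at a log2 fold change of 2.06, against 1.33 with it, and with node replicates 3 and 4 left out it was at 0.67 and not called. Ighg2c, at -3.14, was not called without thymus replicate 1, 3 or 4 or without node replicate 2, where it was at -2.19 (edgeR adjusted p of 0.0513 to 0.0822 over these 4 fits). The count of 7 was 5 without thymus replicate 3, without thymus replicate 4 and without inguinal lymph node replicate 2.

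Antigen presentation through class II molecules fell in all 11 genes, with a median of -2.08. H2-Aa, a chain of the class II molecule I-A, had 923, 944, 857 and 661 CPM in thymus, against 3768, 3599, 2886 and 2559 CPM in inguinal lymph node. Ciita, the transactivator of class II genes, averaged 62.8 ± 16.1 CPM in thymus and 441 ± 54.2 CPM in inguinal lymph node (SD, n = 4 each). H2-Ob, a chain of the modulator H2-O that is found in B cells, showed the largest fall at a log2 fold change of -3.93 ± 0.15, and H2-Ab1 the smallest at -1.49 ± 0.13 (SE). Of 18 class I genes 12 fell and none rose, with a median of -1.23. H2-K1 had 889, 974, 844 and 1028 CPM in thymus and 3067, 3382, 2558 and 2812 CPM in inguinal lymph node, and Nlrc5, the class I transactivator, fell (log2 fold change -1.85). B2m, the light chain, was at a log2 fold change of -0.98 ± 0.16 (SE), just short of the threshold, and was called without thymus replicate 1, 2 or 3 and without node replicate 3 or 4, with log2 fold changes down to -1.09. The genes of the H2-Q and H2-T groups are close copies whose reads may be split.

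Dendritic cell genes were lower in thymus in 15 of 20, with none risen and a median of -1.73. Of conventional type 1 cells, which cross-present antigen, Xcr1 had 10.7, 15.6, 14.6 and 11.2 CPM in thymus and 53.3, 30, 27.7 and 25.8 CPM in inguinal lymph node, and Clec9a fell (log2 fold change -2.10). Of migratory cells, Fscn1, an actin bundler, had 84.8, 91.1, 77.5 and 58.5 CPM in thymus and 564, 412, 418 and 575 CPM in inguinal lymph node. Siglech, of plasmacytoid cells, fell (log2 fold change -2.76). Ccl17, a chemokine of activated dendritic cells, was not called at a log2 fold change of 0.05 ± 0.31 (SE), though Ccl22, its neighbour with the same receptor CCR4, fell (log2 fold change -1.72).

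Macrophage genes were mostly lower in thymus. Of 19, 12 fell and 1 rose, with a median of -1.51. The genes of sinus and subcapsular macrophages fell most, with Siglec1, sialoadhesin, at 1.53, 1.69, 0.608 and 0 CPM in thymus and 38.8, 35.3, 31.2 and 17.2 CPM in inguinal lymph node, beside Marco and Cd209b. Lyz2, lysozyme of myeloid cells, had 269, 354, 304 and 144 CPM in thymus and 3156, 2538, 2315 and 1963 CPM in inguinal lymph node. Timd4, a receptor for dying cells, fell (log2 fold change -4.06), as did Mertk, another (log2 fold change -1.12). The complement genes C1qa, C1qb and C1qc were not called, at log2 fold changes of -0.69 ± 0.15, -0.48 ± 0.17 and -0.61 ± 0.17 (SE), and neither was Adgre1 (F4/80), at 0.48 ± 0.26. Cd163, a haemoglobin receptor, was the member that rose, with 4.58, 6.33, 5.47 and 8.72 CPM in thymus and 0.571, 0.555, 1.59 and 1.23 CPM in inguinal lymph node.

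Of 16 genes of natural killer and cytotoxic cells, 12 were tested, 8 fell and 1 rose. Ccl5, a chemokine of effector cells, had 101, 116, 92.4 and 54.8 CPM in thymus, against 1110.0, 842, 766 and 1118 CPM in inguinal lymph node, and Eomes, a factor of those cells, fell (log2 fold change -3.89). Gzma, granzyme A, was the exception, with 111, 91.1, 105 and 95.3 CPM in thymus and 18.3, 21.7, 12.4 and 22.4 CPM in inguinal lymph node (log2 fold change 2.43 ± 0.16, SE). Of 11 tested granulocyte and mast cell genes on a list of 14, 3 fell, all known from mast cells (Mcpt4, Cma1 and Kit). Mcpt4 was at a log2 fold change of -4.23 without thymus replicate 2, against -3.33 with it. The neutrophil genes S100a8 and S100a9 were at log2 fold changes of 0.21 ± 0.32 and 0.08 ± 0.43 (SE).

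Stromal and vascular genes of the lymph node were lower in thymus. All 12 tested genes of blood endothelium fell, with a median of -2.65, as did 8 of 9 of lymphatic endothelium, with a median of -3.79, and 12 of 15 of reticular fibroblasts, with a median of -2.60. Lyve1, the hyaluronan receptor of lymphatic endothelium, had 4.58, 11, 4.56 and 2.49 CPM in thymus, against 197, 173, 145 and 86.2 CPM in inguinal lymph node (log2 fold change -4.70 ± 0.33, SE), and Prox1, its lineage factor, fell (log2 fold change -3.79). Cdh5, the cadherin of endothelial junctions, had 13, 12.7, 10.3 and 8.09 CPM in thymus and 75.8, 50.5, 62.3 and 56.4 CPM in inguinal lymph node. Mfge8, a bridge to dying cells made by follicular dendritic cells, had 53.9, 64.5, 54.1 and 67.9 CPM in thymus and 935, 901, 794 and 706 CPM in inguinal lymph node, and Enpp2, autotaxin, fell (log2 fold change -2.87). The summed level of the blood endothelium list was 193 to 212 CPM in thymus and 704 to 1034 CPM in inguinal lymph node.

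High endothelium was represented by 9 tested genes of 11, of which 6 fell and none rose. Lifr, a receptor for leukaemia inhibitory factor, lay just under the threshold at a log2 fold change of 1.00 ± 0.17 (SE), and it rose, at 1.01 to 1.12, without thymus replicate 1 or 4, without node replicate 1 or 2, and with other scalings, DESeq2 or the replicate block. Beside Glycam1 those that fell were enzymes and receptors of the venules. Fut7, a fucosyltransferase of high endothelial cells, had 0.382, 1.69, 0.304 and 1.25 CPM in thymus and 41.1, 27.8, 24.2 and 10.7 CPM in inguinal lymph node. Chst4, their sulfotransferase, Madcam1, an addressin, and Ackr1, an atypical chemokine receptor of venules, fell at log2 fold changes of -4.51, -4.08 and -3.16, and Chst4 was at -5.28 without thymus replicate 2. Among matrix genes, 14 were tested, 5 fell and 3 rose, and 7 fell without thymus replicate 2. Col1a1 had 29, 31.6, 15.8 and 15.6 CPM in thymus and 129, 109.7, 196 and 252 CPM in inguinal lymph node, whereas Fbln1, fibulin 1, had 24.1, 27.8, 11.6 and 26.1 CPM in thymus and 1.9, 4.17, 3.82 and 2.76 CPM in inguinal lymph node, and Mgp, the matrix protein that inhibits calcification, rose by a log2 fold change of 2.27 ± 0.17 (SE).

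Several chemokines changed in the same direction as their receptors. Of 24 genes, 21 were tested, 3 rose and 13 fell. Ccr9 had 841, 932, 1052 and 808 CPM in thymus, against 55.6, 69.1, 64.9 and 81.3 CPM in inguinal lymph node, so that with its ligand Ccl25 both sides of that pair rose. Cxcr5, the receptor for Cxcl13, had 3.06, 2.11, 2.13 and 2.49 CPM in thymus and 57.7, 69.1, 46.7 and 55.8 CPM in inguinal lymph node, so that both sides of that pair fell. Ccl19, a ligand of CCR7, fell with Ccr7, at 2.29, 2.11, 0.608 and 0.623 CPM in thymus and 8.57, 14.7, 9.22 and 13.8 CPM in inguinal lymph node. Ccl22 fell while its receptor gene Ccr4 rose. Ccl21a, the other ligand of CCR7, was listed at 0 in all 8 libraries and is not analysed here. The ratio of Ccr9 to Ccr7 was 11.3 to 16.4 in thymus and 0.245 to 0.318 in inguinal lymph node. Cxcr4 and Cxcl12 were not called, at log2 fold changes of 0.75 ± 0.16 and -0.57 ± 0.21 (SE).

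**Figure D4:**
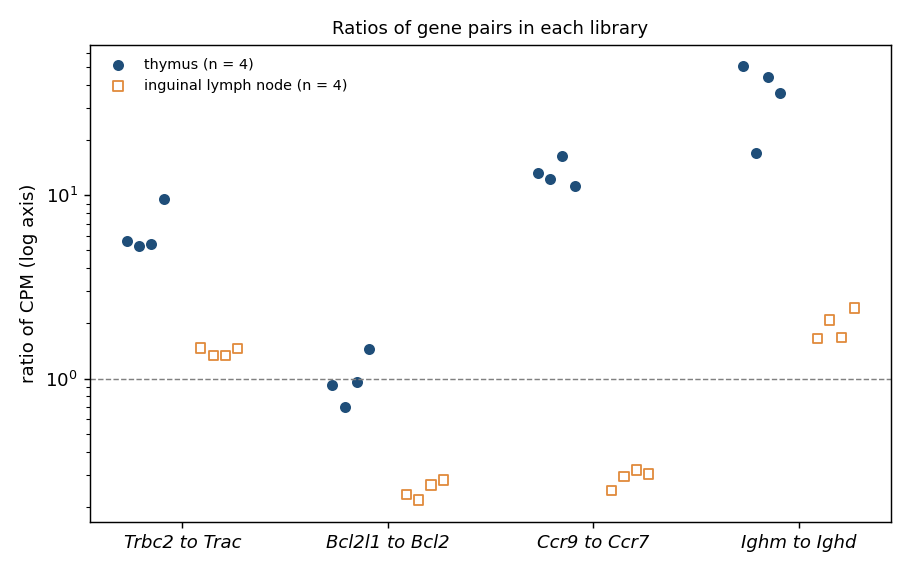
Ratios of CPM within each library for 4 gene pairs, on a log axis, with thymus libraries as filled circles left of inguinal lymph node libraries as open squares. The ranges of the tissues do not overlap for any of the 4 pairs: thymus lies above inguinal lymph node for Trbc2 to Trac, Bcl2l1 to Bcl2, Ccr9 to Ccr7 and Ighm to Ighd. The pairs were chosen after their values were seen, so the lack of overlap is a description and no test.

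In the lymphotoxin and CD40 pathway, which builds both medulla and lymph node, 15 of 18 genes were tested, 11 fell and none rose. Lta and Ltb, the lymphotoxin chains, had 7.26, 7.17, 5.47 and 5.6 CPM and 30.2, 26.1, 22.2 and 39.8 CPM in thymus, against 40.9, 45.8, 46.4 and 39.9 CPM and 140.3, 113, 104 and 108 CPM in inguinal lymph node. Cd40 and the noncanonical NF-kappaB genes Relb and Nfkb2 fell, at log2 fold changes of -2.39, -1.98 and -1.87. Tnfrsf13c, the BAFF receptor of B cells, fell (log2 fold change -5.03). The receptor gene Ltbr was not called at a log2 fold change of -0.66 ± 0.21 (SE).

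Interferon-response genes were uneven among the node libraries. Of 19 genes, 1 rose (5.26%) and 3 fell (15.8%, against 16.5% of all tested genes). Their summed level was 926, 821, 833 and 866 CPM in thymus, against 1085, 1865, 760 and 900 CPM in inguinal lymph node, with node replicate 2 the highest of the 8. Ifit1 had 45.8, 43.4, 35.3 and 40.5 CPM in thymus and 10.5, 101, 11.8 and 14.7 CPM in inguinal lymph node. Oasl2, the member that rose, had 66.5, 59, 64.4 and 80.9 CPM in thymus and 18.5, 57.2, 18.1 and 10.7 CPM in inguinal lymph node. Without node replicate 2, 4 genes of the list rose, against 1 with it, Ifit1 was called at a log2 fold change of 1.74, against 0.26 ± 0.58 (SE) with it, and Oasl2 was at 2.07, against 1.36. The list had 5 fallen genes in place of 3 without thymus replicate 1 and without node replicate 3, and with node replicates 3 and 4 left out Oasl2 was at 0.87 and not called.

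Markers of fat, mammary gland and heart differed between libraries of the same tissue, and beyond leaving libraries out their part in other results was not tested. The summed level of 10 fat cell genes was 1080, 1139, 276 and 707 CPM in thymus, against 442, 65.8, 5921 and 7165 CPM in inguinal lymph node. Adipoq, adiponectin, had 49.7, 55.3, 13.4 and 19.9 CPM in thymus and 23.4, 0.555, 259 and 264 CPM in inguinal lymph node. Node replicates 3 and 4 also held the most reads of Krt19 and Prlr, genes of mammary epithelium, where Prlr had 3.44, 3.37, 3.65 and 3.11 CPM in thymus and 24.2, 1.11, 113 and 81.6 CPM in inguinal lymph node. Without node replicate 3 the log2 fold change of Prlr was -3.37, against -3.96 with it, and without node replicate 4 that of Krt19 was -2.68, against -3.27. Ucp1, the uncoupling protein of brown fat, had 47.8, 28.7, 2.13 and 28 CPM in thymus and 0, 0, 1.27 and 0.307 CPM in inguinal lymph node. Myh6, the heart myosin, had 2.29, 1.26, 0.608 and 28.6 CPM in thymus, with replicate 4 the highest, and 0 in the node libraries. The count of fallen fat cell genes was 2 of 9, and it was 0 without thymus replicate 3 or node replicate 3 or 4, 7 of 9 without node replicate 1 and 10 of 10 without node replicate 2. Adipoq was not called at a log2 fold change of -1.96 ± 0.93 (SE), and was at 1.41, higher in thymus and not called, with node replicates 3 and 4 left out. Of 10 red cell genes, 5 were tested, 3 fell and 1 rose (Tfrc, the transferrin receptor, also of dividing cells), with 1 fallen without node replicate 4 and 0 fallen without node replicates 3 and 4. Of 10 muscle genes, 4 were tested, with 1 risen and 1 fallen, and 2 rose without thymus replicate 2 or 4 or node replicate 2 or 4. Of 8 mammary genes 3 were tested, with 1 risen (Csn2) and 2 fallen, and 1 fell without node replicates 3 and 4. Of 6 nerve genes 2 were tested and 1 fell, and 0 fell without thymus replicate 1, 2 or 3 or without node replicates 3 and 4. Of 5 brown fat genes 3 were tested and 0 were called, but 1 of 4 rose without thymus replicate 3 or node replicate 1, 2 or 3, 2 of 4 without node replicate 4 and 3 of 4 without node replicates 3 and 4. The 1 heart gene of 6 that was tested was not called, but it fell without thymus replicate 4, and 1 of 2 rose without node replicates 3 and 4. None of 3 parathyroid genes passed the filter on low counts, but 1 passed it and rose without thymus replicate 4, without any 1 of the 4 node libraries, and without node replicates 3 and 4. With node replicates 3 and 4 both left out, 1977 genes rose and 2292 fell, 5 of 9 fat cell genes rose in place of 0, 8 interferon genes fell in place of 3, and 11 of 13 cytotoxic genes fell in place of 8 of 12.

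**Figure D5:**
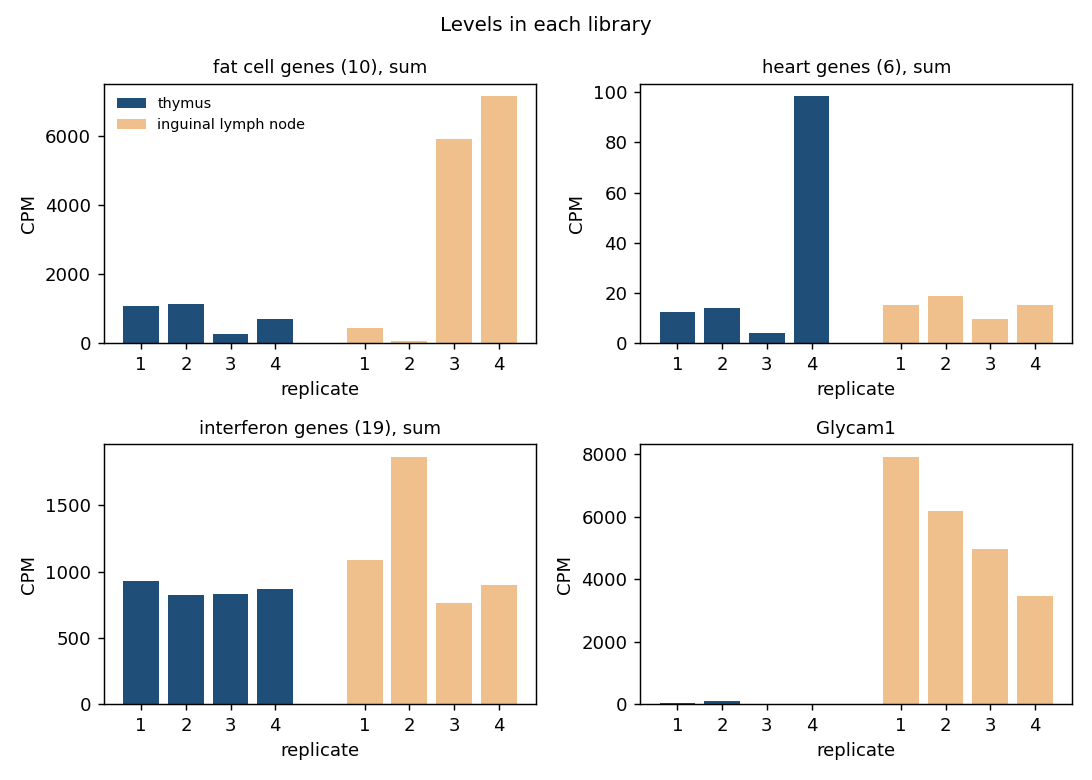
Summed CPM per library of the fat cell, heart and interferon-response lists and CPM of Glycam1, with the 4 thymus libraries (dark bars, left) and the 4 inguinal lymph node libraries (light bars, right) on linear axes from 0. Fat cell genes reach 5921 and 7165 CPM in node replicates 3 and 4, heart genes 98.4 CPM in thymus replicate 4 and interferon genes 1865 CPM in node replicate 2.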

How the data were processed

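RNA was measured in 4 thymus and 4 inguinal lymph node libraries, per the labels, which describe TRIzol extraction, fragmentation by heat, barcoded oligo(dT) priming and a NextSeq500. The authors deposited raw counts of reads per gene. The submitters' processing notes name FastQC, STAR, featureCounts and mm10, without versions, and no molecular identifiers are described, so intervals and bounds cover counting error only. No source used here states a strand setting, and overlapping genes may share reads. Gene types came from GENCODE M21, which matched 54495 of 54532 gene IDs.

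Counts of the 8 libraries were fitted in R 4.3.3 with edgeR 4.0.16 (glmQLFit and glmQLFTest, two-sided). The filterByExpr filter used a count minimum of 10 and a total minimum of 15, scaling was by TMM, and CPM are counts per 1000000 counts of the scaled library total. Calls needed a Benjamini-Hochberg adjusted p below 0.05 together with an absolute log2 fold change over 1. Each SE of a log2 fold change is its absolute value divided by the square root of the F statistic of the test. It is an approximation that edgeR does not itself report, and is least sure where node reads are few. Bounds for genes without node reads use 3 counts over the 4 node libraries, and genes with 1 to 3 node reads are given as a ratio with its 95% counting interval. The fit was also run on simulated counts with a common dispersion for all genes and with changes planted only in genes of higher counts. That run does not cover changes in genes with few reads, or libraries that stood apart.

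The genes named were the 12 that changed most in either direction (20 CPM or more in the higher tissue, no overlap between libraries, named gene models), the members of the gene lists, Malat1 and the mitochondrial genes. The members and lists were chosen with earlier results of these data known. Lists were written from general knowledge and are described by counts and medians. Some list members are counted but not reported here by name. Promoter windows are from RefSeq on GRCm38.p6, in which all 3 genes searched for were found. Alternatives were other scalings, no filter, DESeq2 1.42.0, a replicate block, leaving out each library, protein-coding genes alone, all 60 libraries and other fold thresholds. Leaving out node replicates 3 and 4 together was chosen after seeing the data.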

Additional observations from a re-analysis of the deposited data

Results flagged for a closer look

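A library was set apart where its gap to the nearest of the other 3 libraries of its tissue, divided by the range of the 4, exceeded Dixon's 95% critical value for 4 samples. This held for 32 groups of 4 libraries, over 237 gene levels, summed levels and library measures. In 5 of them 3 libraries were at 0, which sets the other apart whatever its count (Chga, Fezf2, Psmb11, Rag2 and Slc46a2). Of the 460 other groups that had a range, 27 held such a library (5.87%), and chance alone sets apart about 1 in 20 groups. Values of the other 3 libraries follow each value in brackets.

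Thymus replicate 1 had 1.53 CPM of Cma1 (1.22 to 1.27 CPM) and 3.44 CPM of Zbtb16 (6.08 to 6.33 CPM). Thymus replicate 2 showed 38.4 CPM of Cd79b (28 to 28.7 CPM), 8.44 CPM of Fcer2a (5.6 to 5.78 CPM) and 122 CPM of Gata3 (140 to 142 CPM). Further values in it were 47.2 CPM of Ighd (14.5 to 16.8 CPM) and 3.8 CPM of Vpreb3 (0.764 to 1.25 CPM). Thymus replicate 3 held 885 CPM of Arpp21 (734 to 753 CPM) and 25.8 CPM of S100a8 (18.7 to 19.5 CPM). Thymus replicate 4 gave 67.2 CPM of Cd81 (124 to 129 CPM), 14.3 CPM of Foxn1 (23.6 to 25.2 CPM) and 19.3 CPM of Gimap7 (11.8 to 12.2 CPM). To these came 237 CPM of Hmgb1 (167 to 174 CPM), 32.4 CPM of Il7 (43.9 to 45.6 CPM) and 28.6 CPM of Myh6 (0.608 to 2.29 CPM). It also had 61.6 CPM of Nr4a1 (42.2 to 45 CPM), 516 CPM of Rps19 (701 to 736 CPM) and 98.4 CPM of the summed heart genes (4.26 to 13.9 CPM). Inguinal lymph node replicate 1 carried 0.19 CPM of Chga (0 CPM) and 53.3 CPM of Xcr1 (25.8 to 30 CPM). Inguinal lymph node replicate 2 stood apart with 744 CPM of Cd79b (618 to 634 CPM), 0.278 CPM of Fezf2 (0 CPM) and 101 CPM of Ifit1 (10.5 to 14.7 CPM). Further values in it were 57.2 CPM of Oasl2 (10.7 to 18.5 CPM), 0.555 CPM of Rag2 (0 CPM) and 86.4 CPM of Socs1 (54.7 to 60 CPM). Inguinal lymph node replicate 3 differed with 32.7 CPM of Cdt1 (41.1 to 42.6 CPM), 58.8 CPM of Ikzf2 (76.7 to 77.6 CPM) and 0.318 CPM of Psmb11 (0 CPM). The same library had 35.6 CPM of S100a8 (10.7 to 14.2 CPM), 0.318 CPM of Slc46a2 (0 CPM) and 218 CPM of Trbc1 (299 to 310 CPM).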

How the results depend on the processing

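The counts of 1657 genes higher and 2202 lower in thymus were 2648 and 3091 without a filter on low counts, 3797 and 4004 without a fold threshold, and 1094 and 1331 when the fold itself was tested against a log2 fold change of 1 with glmTreat, a change that the thresholds set by construction. The other alternatives stayed within 1.5 times, with 1686 and 2154 in DESeq2, 1977 and 2292 without node replicates 3 and 4, and, leaving out 1 library, 1633 to 1849 higher and 2236 to 2407 lower. Same-numbered thymus and node libraries deviated from their group means with correlations of 0.017, -0.102, -0.184 and 0.031, which gave no sign that the numbers pair samples, though the labels do not say which mouse each library came from. The fit with a replicate block gave 1653 and 2184.

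Of 223 named genes tested, 158 kept their direction and call in every alternative. Genes near 0 changed sign without a call. Leaving out 1 library put the log2 fold change of Ccl17 at -0.18 to 0.26, of Jchain at -0.59 to 0.13, of Ly6d at -0.066 to 0.068, of S100a8 at -0.039 to 0.71, of S100a9 at -0.26 to 0.85 and of Xrcc5 at -0.023 to 0.26. For Ifit1 it was -0.088 to 1.74, called without node replicate 2. Ly6d was at -0.011 without a filter and at -0.013 in the fit of all 60 libraries. Without node replicates 3 and 4, Adipoq was at 1.41, Ccl17 at -0.11 and Ifit1 at -0.40. The causes were not tested. With the lowest thymus library at 1636560 counts, most tissue-restricted antigens were under the filter and could not be compared in the main fit.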

Other observations

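Gene families were also grouped by symbol, after their values were seen. Among 18 tested genes with Hist symbols, which encode histones, 15 rose in thymus and none fell, with a median log2 fold change of 2.39. Some of the 18 passed the filter on low counts only through their thymus reads. Hist1h4m, for example, averaged 5.28 CPM in thymus and 0 CPM in inguinal lymph node. The count and median therefore do not describe all histone genes. Their summed level was 638, 610.3, 661 and 812 CPM in thymus, against 124, 124, 137 and 139 CPM in inguinal lymph node. Hist1h1b, a linker histone, averaged 182 CPM in thymus and 10.5 CPM in inguinal lymph node. Most histone transcripts of dividing cells carry no poly(A) tail, and the share that oligo(dT) primed here was not measured.

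Of 78 tested genes for ribosomal proteins, 76 lay below 0 on the log2 scale, with a median log2 fold change of -0.75, against -0.03 for all tested genes. By the test 12 fell (15.4%, near the 16.5% of all tested genes) and none rose. Their summed level was 64780, 64260, 60550 and 61730 CPM in thymus, against 109600, 116200, 98390 and 110500 CPM in inguinal lymph node. Rps19 averaged 669 CPM in thymus and 1995 CPM in inguinal lymph node. Mitochondrial ribosomal RNA moved the other way between the tissues, at 10.9 to 13.8% of counts in thymus and 4.33 to 7.66% in inguinal lymph node, and its part in the ribosomal protein values was not tested.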
